A study of Mus musculus with 60 samples.

Results

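Lung and colon were compared as whole tissues, 4 libraries of each, chosen by their tissue label from the 60 libraries of a mouse series that covers 15 tissues. All 8 libraries came from female C57BL6/J mice aged 6 weeks, and the labels name no allele, transgene or treatment, no lobe of the lung and no stretch of the colon. Blood was washed out before dissection by perfusion with saline and EDTA, and the series was set up to follow immune processes across the body. RNA was primed with barcoded oligo(dT), so a count is a sequenced read near the 3' end of a transcript that was assigned to a gene. The labels number the replicates 1 to 4 but do not say that equal numbers in lung and colon mark the same mouse. The p-values therefore measure the spread between these samples.

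Lung and colon both form from the gut tube of the embryo and both line a surface open to the outside, but they do different work. Alveolar type 2 cells make surfactant, the lipid and protein film that keeps the air spaces open, type 1 cells form the thin wall across which gas passes into capillaries, and club and ciliated cells line the airways. The colon takes up salt, water and the fatty acids that bacteria make, its goblet cells build a mucus layer over the epithelium, its crypts renew that epithelium throughout life, and plasma cells below it release IgA into the lumen.

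The tissue labels were checked first with Scgb1a1, the secretoglobin of club cells, and Muc2, the gel-forming mucin of goblet cells. Levels are given as CPM, the usual scaling of counts by library size, with totals adjusted by TMM over the tested genes. Scgb1a1 (ENSMUSG00000024653, chromosome 19, 9083636 to 9087958) stood at 128000, 124500, 120900 and 122800 CPM in lung replicates 1 to 4 and at 1.07, 12.2, 10.7 and 20.9 CPM in colon replicates 1 to 4. Muc2 (ENSMUSG00000025515, chromosome 7, 141690340 to 141754693) stood at 16290, 12010, 16340 and 16830 CPM in colon, and the 4 lung libraries held 3 of its reads in all. Each library held the marker of its label and next to none of the other.

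Lung libraries held 904970 to 1202994 counts and colon libraries 750212 to 951914. In contrast to the other 52 libraries of the series, where mitochondrial rRNA made up 4.33% to 40.6% of counts and Malat1 0.131% to 1.65%, both RNAs were scarce in all 8: mitochondrial rRNA made up 0.233% to 0.292% in lung and 0.736% to 0.928% in colon, and Malat1 0.0266% to 0.0282% and 0.0151% to 0.0218%. The 10 genes with most reads took 19.4% to 20.1% of a lung library and 6.92% to 7.74% of a colon library. Scgb1a1 alone took 11.7% to 12.3% of lung counts, and Muc2 1.19% to 1.66% of colon counts. Rank correlations of all tested genes were 0.942 to 0.957 between lung libraries and 0.485 to 0.517 between lung and colon libraries (Spearman, given as a description).

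Colon replicate 2 stood apart from the other colon libraries. Its rank correlation with them was 0.935 to 0.940, against 0.9497 to 0.954 among the other 3, and it held 17 genes at least 2-fold above and 60 at least 2-fold below all of them, where no other library of either tissue held more than 10 and 12. Its sum over 8 genes of the exocrine pancreas was 6344 CPM, against 186 to 205 CPM in the other colon libraries. Lung replicate 1 held more haemoglobin RNA (a sum of 7612 CPM over 6 red cell genes, against 593 to 1724 CPM). Results that rest on either library are given with and without it, and their part in the other results was not tested.

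Of 10242 genes with enough reads to test, 3665 (35.8%) were called, that is, passed an adjusted p of 0.05 in edgeR's quasi-likelihood test and differed by more than 1 on the log2 scale. Of these, 1889 (18.4% of the genes tested) were higher in lung and 1776 (17.3%) higher in colon. The 4 libraries of the higher tissue all lay above the 4 of the other for 1827 and 1727 of them. Log2 fold changes are lung minus colon. The SE given with them is the size of the log2 fold change divided by the square root of the test's F statistic. The 95% intervals of log2 fold changes were built from this SE. The median log2 fold change over all tested genes was -0.006. TMM scaling itself centres the fold changes near 0, so this median is no check of the scale on which the shares below are read. Differences beyond 5 on the log2 scale were found for 185 genes on the lung side and 303 on the colon side, and 65 and 139 called genes had no read at all in the other tissue. A gene read in 1 tissue passes the filter on low counts through that tissue, so counts over the tested members of a list describe the list and lend it no support. In whole tissue, more cells of a type and more RNA in each of them cannot be told apart.

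**Figure D1:**
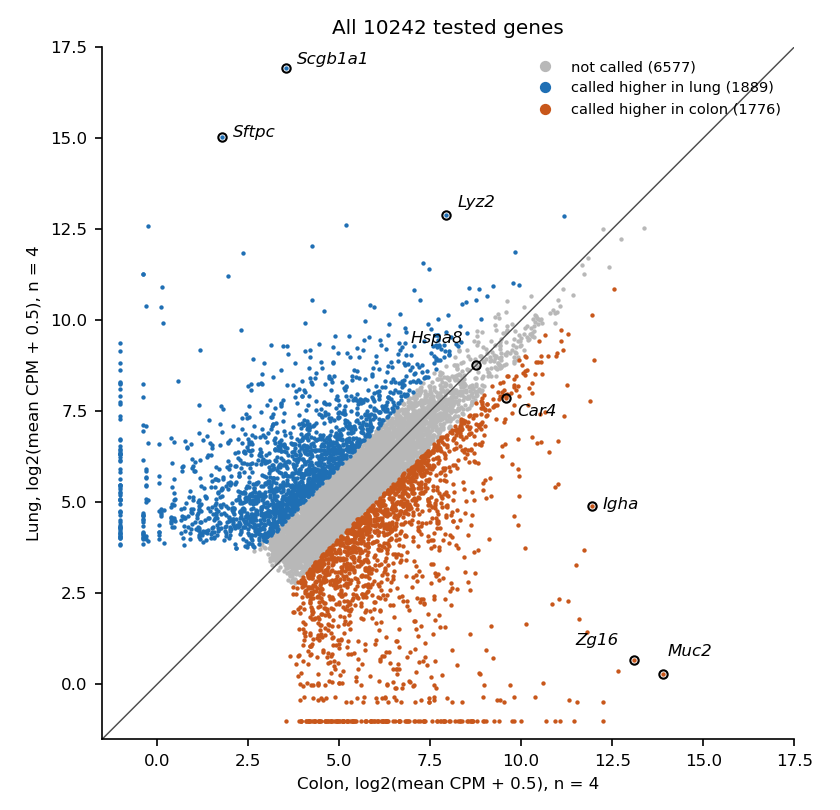
Mean level of each of the 10242 tested genes in colon (horizontal axis) and lung (vertical axis), both as log2 of the mean CPM of 4 libraries plus 0.5. Each point is a gene, the line marks equal levels, and the 1889 genes higher in lung and 1776 higher in colon are coloured.

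The genes that differed most were products of the surface epithelium of each organ. By the rule for naming, the 10 leading lung genes were Sftpa1, Scgb1a1, Sftpc, Sftpb, Cxcl15, Cldn18, Bpifa1, Chil3, Sftpd and Lamp3, of which all but Chil3 are known from alveolar type 2 or airway cells. The 10 leading colon genes were Car1, Tff3, Muc2, Mptx1, Guca2a, Cyp2c55, Dmbt1, Zg16, Prss32 and Lypd8, known from absorptive cells and goblet cells. The 8 genes with most reads in lung were Scgb1a1, Sftpc, Lyz2, Tmsb4x, Cbr2, Sftpa1, mt-Cytb and Actb, and in colon Muc2, mt-Cytb, Zg16, mt-Nd4, Lypd8, mt-Rnr2, mt-Nd1 and Car1. Where a tissue held no read, a fold is a lower bound that takes 3 counts over its 4 libraries, and where it held 1 to 3 reads the ratio of the pooled counts is given with its 95% counting interval. Bounds and intervals cover counting error only.

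**Figure D2:**
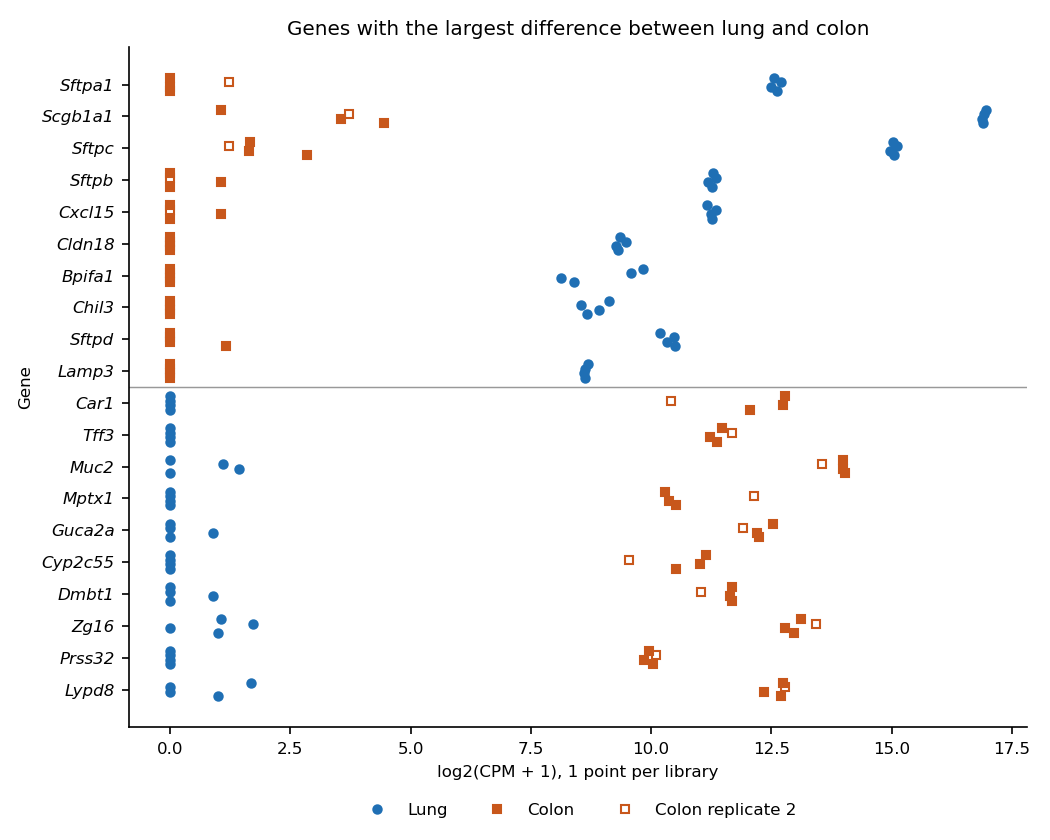
Level of the 20 leading genes in each of the 8 libraries, as log2 of CPM plus 1 (horizontal axis), 1 point per library and an open square for colon replicate 2. For every gene the 4 points of the higher tissue lie to the right of the 4 of the other.

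The surfactant system was the clearest mark of lung. Sftpc, the hydrophobic surfactant protein made only by type 2 cells, stood at 33410, 35200, 31770 and 33900 CPM in lung and at 2.15, 1.35, 2.14 and 6.15 CPM in colon (log2 fold change 13.42 ± 0.20, adjusted p = 6.63e-22). Sftpa1, a lectin of surfactant that binds microbes, stood at 6022, 6634, 5748 and 6285 CPM with 1 colon read in all, a ratio of 21010 (95% interval 3771 to 829900). Sftpb, the surfactant protein without which the film does not form, stood at 2496, 2611, 2337 and 2450 CPM, also with 1 colon read. Within lung these levels varied little between mice, and the groups lay far apart. All 11 tested of 12 genes of type 2 cells were higher in lung, with a median log2 fold change of 11.52, or 8.82 with genes without colon reads at their bounds. The lamellar body protein Lamp3 had no colon read and was at least 452-fold higher, while the transcription factor Etv5 (1.68 ± 0.17) and the protease Ctsh (1.97 ± 0.12), which many cells make, differed least. The lipid transporter Abca3, with 56 reads in lung and 14 in colon, had too few to be tested.

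The 2 surfactant promoters below are shown because the factor NKX2-1, named for the thyroid and lung, is known to act on surfactant genes. Each line gives the 200 bases before the transcript start of RefSeq on GRCm38.p6, 5' to 3' on the plus strand, with every CTCAAG, the core of the NKX2-1 motif searched on both strands, in capitals. They lie at chr6:72304410-72304609 (Sftpb) and chr14:41131588-41131787 (Sftpa1).
Sftpb: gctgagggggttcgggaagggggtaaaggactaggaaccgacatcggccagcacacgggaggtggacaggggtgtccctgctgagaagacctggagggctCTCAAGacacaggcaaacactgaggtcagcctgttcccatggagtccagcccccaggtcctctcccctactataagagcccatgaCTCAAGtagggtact
Sftpa1: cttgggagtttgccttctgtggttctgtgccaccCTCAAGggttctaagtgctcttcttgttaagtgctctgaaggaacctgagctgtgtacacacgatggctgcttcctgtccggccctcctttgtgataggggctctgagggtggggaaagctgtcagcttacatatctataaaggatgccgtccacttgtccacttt
The core begins 100 and 15 bases before the start of Sftpb and 166 before that of Sftpa1. Such a short word is common: in windows of 300 bases (250 before the start to 50 after) it stood in 15.9% of all 32851 promoters, in 14% of those of tested genes, in 14.7% of those of genes higher in lung and in 14.3% of those of genes higher in colon. Among genes that differed by more than 5 on the log2 scale, a limit chosen after the values were seen, it stood in 15.9% of the promoters on the lung side and 18.3% on the colon side. A match describes these letters and is no evidence of a binding site. Nkx2-1 itself had 193, 276, 203 and 194 CPM in lung and no read in colon, at least 244-fold higher.

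The other lung epithelia followed. All 10 genes of alveolar type 1 cells were higher in lung (median log2 fold change 3.87), led by Ager, the receptor abundant on type 1 cells, at 2369, 2343, 2310 and 2390 CPM in lung and 1.23 to 6.42 CPM in colon (9.34 ± 0.20, adjusted p = 3.92e-20). The water channel Aqp5 had no colon read and was at least 315-fold higher. Hopx and Cav1, which have known roles in other cells too, stood at 62.1 and 115 CPM on average in colon and differed by 4.40 ± 0.14 and 2.82 ± 0.12. So the type 1 list joined genes that were all but silent in colon with genes that were read in both organs.

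In the conducting airways, all 9 tested of 10 secretory genes were higher in lung, with a median of 10.24, or 7.82 at bounds. Beside Scgb1a1 (13.46 ± 0.28, adjusted p = 3.92e-20) these included its relatives Scgb3a1 and Scgb3a2, each with 2 colon reads, the cytochrome Cyp2f2 of club cells (4195 ± 246 CPM in lung, SD, n = 4, against 18.8 ± 9.94 CPM) and the carbonyl reductase Cbr2 (7.45 ± 0.14). Bpifa1, a secreted airway defence protein, varied most within lung, at 905, 768, 279 and 338 CPM, with no colon read. Lung replicates 1 and 2 were high and 3 and 4 low, and all 4 lay above colon. Of 12 genes of ciliated cells, the 11 tested were all higher in lung (median 7.19, or 5.24 at bounds). Foxj1, the master regulator of motile cilia, stood at 155, 140, 122 and 128 CPM in lung with 1 colon read, and the lipid-binding Sec14l3 was at least 274-fold higher. Tppp3, the member with most colon reads, differed by 1.58 ± 0.13.

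Goblet cell genes were the mirror image in colon. All 12 were higher in colon, with a median log2 fold change of -9.41, or -8.96 at bounds. Muc2 had a ratio of 20410 (95% interval 6985 to 99000). Tff3, the trefoil peptide packed with the mucin, stood at 2857, 3294, 2388 and 2641 CPM without a lung read and was at least 3650-fold higher. Zg16, a lectin that keeps bacteria off the epithelium, stood at 8899, 11090, 7025 and 7996 CPM in colon and at 0 to 2.31 CPM in lung (-12.89 ± 0.27, adjusted p = 3.92e-20). The lowest colon library lay far above the highest lung library for each of the 3 genes. Clca1, Fcgbp and Agr2, which help to form or fold the mucus, differed by -8.24 ± 0.31 (-8.86 without lung replicate 3), -8.82 ± 0.25 and -10.69 ± 0.25 (-11.63 without lung replicate 2). Of the transcription factors of the secretory lineage, Atoh1 had no lung read (at least 154-fold) and Spdef differed by -5.91 ± 0.36 (-7.39 without lung replicate 3). Sytl2, a vesicle protein, differed least of the list at -2.06 ± 0.21.

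All 14 genes of absorptive cells were higher in colon, with a median of -9.97, or -9.50 at bounds. Guca2a, which encodes the gut hormone guanylin that steers salt and water flow, stood at 5936, 3852, 4679 and 4857 CPM with 1 lung read (ratio 19290, 95% interval 3462 to 762100). Car1, a carbonic anhydrase of the colon, stood at 6997, 1355, 6852 and 4259 CPM without a lung read, at least 6694-fold higher. Colon replicate 2 was the lowest for Car1, and the gene was called without it too. The chloride and bicarbonate exchanger Slc26a3 and the water channel Aqp8 went the other way, with their highest colon level in replicate 2 (695 against 352 to 444 CPM, and 868 against 323 to 534 CPM). Car4, a carbonic anhydrase on the cell surface, was read in both organs, at 238, 197, 239 and 264 CPM in lung and 740, 1103, 560 and 669 CPM in colon (-1.71 ± 0.16, adjusted p = 5.23e-09). Car4 is also a known marker of lung capillaries, and it was the only member of that list to be higher in colon.

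The 2 colon promoters below are shown because they hold motifs of factors that the intestinal epithelium uses. In Guca2a the capitals mark TGTTTAC, a FOXA motif, and in the second annotated start of Muc13, a mucin anchored in the membrane of the epithelium, they mark TGGACTTTG, which read on the other strand is the HNF4 motif CAAAGTNCA, and a CTCAAG of the kind shown for surfactant. Both lines give the 200 bases before the RefSeq start on GRCm38.p6, 5' to 3' on the plus strand, at chr4:119637532-119637731 and chr16:33794289-33794488.
Guca2a: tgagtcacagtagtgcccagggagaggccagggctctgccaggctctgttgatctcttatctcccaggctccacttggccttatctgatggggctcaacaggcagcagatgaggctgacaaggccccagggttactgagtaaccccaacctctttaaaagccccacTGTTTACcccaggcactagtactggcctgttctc
Muc13: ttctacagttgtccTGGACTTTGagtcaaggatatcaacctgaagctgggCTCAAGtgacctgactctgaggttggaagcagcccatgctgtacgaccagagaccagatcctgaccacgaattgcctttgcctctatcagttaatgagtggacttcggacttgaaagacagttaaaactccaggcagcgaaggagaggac
The FOXA word begins 34 bases before the start of Guca2a, and the HNF4 word 186 before that of Muc13. The 200 bases before the first annotated start of Muc13 held no match to any motif searched. The HNF4 motif, searched on both strands in windows of 300 bases, stood in 1.41% of all promoters, in 1.17% of those of genes higher in lung and in 1.78% of those of genes higher in colon. In promoters of genes higher in colon by more than 5 on the log2 scale, a limit chosen after the values were seen, it stood in 13 of 251, or 5.18%, and in those of the lung genes past the same limit in 3 of 164, or 1.83%. For the FOXA motif the shares were 3.65% of all promoters and 4.78% and 2.44% of these groups. In promoters of tested genes the HNF4 motif stood in 1.12% and the FOXA motif in 2.64%. A motif of HNF1 was searched as well and stood in 0.399% of all promoters and 0.203% of those of tested genes. Past the same limit it stood in 6 of 251 (2.39%) on the colon side and 3 of 164 (1.83%) on the lung side. Of the 20 leading genes, 13 had a promoter in the RefSeq table. Muc13 had 859, 857, 819 and 894 CPM in colon and no lung read, at least 1127-fold higher.

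Hormone cells of the gut were read in colon alone or nearly so. All 8 tested of 11 enteroendocrine genes were higher in colon (median -8.96, or -6.97 at bounds), and the summed level of the list was 945 to 1057 CPM in colon and 0 to 3.43 CPM in lung. Pyy, the peptide that slows gut movement after meals, stood at 191, 282, 197 and 203 CPM (at least 283-fold). Insl5, a peptide of the colon, stood at 140, 273, 133 and 135 CPM with 4 lung reads in all (-7.20 ± 0.41). Secretin (Sct) stood at 106, 87.7 and 84.8 CPM in colon replicates 1, 3 and 4 and at 13.5 CPM in replicate 2. All 3 hormones lay above lung in every colon library, though replicate 2 was the highest for Pyy and Insl5 and the lowest for Sct.

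The crypt and dividing cells showed a less even picture. Of 11 tested genes of crypt base stem cells and of the Wnt pathway that sustains them, 5 were higher in colon (Sox9, Ascl2, Ephb2, Smoc2 and Myc), 1 was higher in lung and 5 were not called. Sox9, a factor of crypt cells, stood at 79.5, 104, 123 and 86.1 CPM in colon and at 0 to 1.99 CPM in lung (-6.42 ± 0.35, adjusted p = 5.12e-13). Lgr5, the stem cell receptor, had 30 colon reads and no lung read, too few to be tested. Nkd1, a feedback inhibitor of Wnt signalling, was higher in lung, at 123, 138, 131 and 208 CPM against 23.4 to 30.1 CPM (2.49 ± 0.19, adjusted p = 1.41e-10). Axin2, another feedback inhibitor, stood at 31.7 ± 5.74 CPM in lung and 30.7 ± 8.05 CPM in colon (SD, n = 4), and the 95% interval of its log2 fold change ran from -0.45 to 0.52. Without colon replicate 4 the count of the list on the lung side was 2 in place of 1.

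Of 14 tested cell cycle genes, 12 were higher in colon and 2 were not called (median -3.19). Ube2c, which marks proteins for destruction at the end of mitosis, stood at 103, 119, 116 and 92.2 CPM in colon and at 2.98 to 6.59 CPM in lung (-4.59 ± 0.24, adjusted p = 2.09e-13). Top2a and Mki67, of dividing cells, differed by -3.95 ± 0.28 and -3.44 ± 0.30. The replication genes Pcna (95% interval -0.90 to 0.06) and Mcm2 (-0.75 to 0.38) were not called.

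Mucins divided by organ. Of 8 tested, Muc2, Muc3, Muc3a, Muc4 and Muc13 were higher in colon and Muc1, Muc5b and Emcn in lung. The secreted airway mucin Muc5b stood at 61.5, 68, 93.6 and 62.6 CPM in lung without a colon read, at least 82.8-fold higher. The membrane mucin Muc1 stood at 295 ± 11.6 CPM in lung and 11.5 ± 7 CPM in colon (4.71 ± 0.20), and Muc3, the main membrane mucin of the mouse gut, at 2736, 2868, 2175 and 2440 CPM in colon with 1 lung read. Muc5ac had 4 reads in lung and none in colon. Emcn, a sialomucin, is a gene of endothelium rather than of mucus.

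Salt and water transport differed in kind. Of 22 tested channels, pumps and exchangers, 16 were higher in colon and 6 in lung (median -2.30). The 6 of lung included all 3 subunits of the epithelial sodium channel, Scnn1a (1.55 ± 0.16), Scnn1b (2.93 ± 0.27) and Scnn1g, which stood at 135, 136, 136 and 139 CPM in lung and 1.07, 6.75, 3.21 and 12.3 CPM in colon (4.58 ± 0.26, adjusted p = 1.30e-12, or 5.24 without colon replicate 4). The others were the water channels Aqp1 and Aqp5 and the chloride transporter Slc26a9, which had no colon read. Colon held the sodium and proton exchangers Slc9a2 (-5.97 ± 0.21) and Slc9a3 (at least 96.6-fold), the water channels Aqp4 and Aqp8, the anion channel of the cystic fibrosis gene Cftr (-3.14 ± 0.16) and the potassium channel parts Kcne3 and Kcnn4. The proton and potassium pump Atp12a stood at 43, 154, 41.7 and 67.6 CPM in colon, highest in replicate 2 (a mean of 76.5 CPM, or 50.8 CPM without it), with no lung read. So sodium uptake genes were read on both sides, with the channel subunits higher in lung and the exchangers in colon.

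Claudins and their partners, which seal the space between cells, gave 11 genes higher in colon, 4 in lung and 5 not called among 20 tested (median -1.37). Cldn18, the claudin of alveolar epithelium, stood at 657, 717, 619 and 638 CPM in lung without a colon read (at least 746-fold). Cldn5, of endothelium (5.45 ± 0.22), Tjp1 (1.75 ± 0.13) and Jam2 (1.06 ± 0.26) were the others of lung. Jam2 was no longer past the limit without colon replicate 1 (0.92), 2 (1.00) or 3 (0.90). In colon Cldn2, which lets cations through (-7.11 ± 0.31), Cldn8 (-4.45 ± 0.45, or -5.16 without lung replicate 1), Cldn7 and Cldn15 led. The junction protein F11r stood at 106 ± 13 CPM in lung and 107 ± 22.4 CPM in colon, with an interval of -0.33 to 0.28. Among 6 tested keratins, those of simple epithelium Krt8 (-4.10 ± 0.14), Krt18, Krt19 and Krt20 were higher in colon and Krt7 (1.15 ± 0.11) and Krt23 (1.12 ± 0.30, or 0.95 and not called without colon replicate 3) in lung.

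Both surfaces carried antimicrobial proteins, but different ones. Of 18 tested genes of mucosal defence, 12 were higher in lung and 6 in colon. Lyz2, the lysozyme of macrophages and type 2 cells, stood at 7666, 7671, 7753 and 7476 CPM in lung and 233, 229, 236 and 283 CPM in colon (4.96 ± 0.12, adjusted p = 2.50e-19). Its near copy Lyz1 differed by 5.12 ± 0.23, and reads could have been divided between the pair. The chitinase-like Chil1 (964 ± 16.9 CPM in lung, 2 colon reads) and the iron scavenger Lcn2 (5.54 ± 0.20) were also higher in lung, where the levels of all 4 libraries were close.

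Colon held Lypd8, which binds the flagella of bacteria, at 6884, 7088, 5190 and 6675 CPM with 3 lung reads, a ratio of 8448 (95% interval 2890 to 40970). Dmbt1, a scavenger protein of mucus, stood at 3284, 2112, 3195 and 3269 CPM with 1 lung read. Reg4 stood at 601, 480, 485 and 402 CPM and the resistin-like Retnlb at 224, 213, 171 and 103 CPM, with 0 and 1 lung reads. Dmbt1 was lowest in colon replicate 2 and Retnlb in replicate 4, and all 4 genes lay above lung in every colon library. Mptx1, a pentraxin of the gut, stood at 1256, 4508, 1323 and 1456 CPM and Ang4, an antimicrobial ribonuclease, at 74.1, 402, 88.8 and 89.7 CPM, with replicate 2 far above the rest and no lung read of either. Without colon replicate 2 both were still called by edgeR (adjusted p = 6.06e-26 and 1.06e-15), with colon means of 1345 ± 101 and 84.2 ± 8.77 CPM (SD, n = 3) in place of 2136 and 164 CPM. Reg3g, a lectin against Gram-positive bacteria that is best known from the gut, was higher in lung here, at 88.9, 58.8, 79.8 and 39.7 CPM against 21.5, 1.35, 36.4 and 6.15 CPM (1.94 ± 0.39, adjusted p = 0.000168, or 2.66 without colon replicate 3). Its relative Reg3b stood at 159, 2.7, 322 and 133 CPM in colon without a lung read, and with all 8 libraries the filter left it out. It was tested by edgeR, and called higher in colon, without colon replicate 2 (adjusted p = 3.86e-16) and without lung replicate 1 (adjusted p = 1.02e-05).

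Enzymes that handle foreign compounds were divided between the organs, with 10 of 26 tested higher in lung and 12 in colon. Lung held Cyp2f2, Cyp2b10 (302 ± 27.6 CPM, 1 colon read), the flavin monooxygenases Fmo1 and Fmo2 and the aldehyde oxidase Aox3. Colon held Cyp2c55, at 2258, 745, 2057 and 1459 CPM (at least 2219-fold), Cyp2c65, the glucuronosyltransferase Ugt2b34 (at least 349-fold) and the sulfotransferase Sult1b1, with 1 lung read. Cyp4b1 stood at 629, 823, 704 and 831 CPM in lung and at 67.7, 0, 79.2 and 78.7 CPM in colon, where replicate 2 had no read. The groups did not overlap for any of these genes, and Cyp2c55, Cyp2c65 and Cyp4b1 were all low in colon replicate 2.

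Genes for the use of butyrate, a fuel of colon cells, and of ketone bodies were higher in colon in 10 of 12 tested, and none was higher in lung (median -2.36). The butyrate carriers Slc5a8 (-6.43 ± 0.26) and Slc16a1 (-3.03 ± 0.17), the short-chain acyl dehydrogenase Acads (-3.0 ± 0.20) and the ketone dehydrogenase Bdh1 (-5.40 ± 0.29, or -6.10 without lung replicate 3) were higher in colon. Acss1 and Pdk4 were not called.

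Of the transcription factors listed, 7 of 15 of lung and foregut had no colon read and 8 of 18 of the intestine had no lung read. Of 14 tested genes of lung development, 10 were higher in lung and none in colon (median 4.25). Beside Nkx2-1, the Iroquois factors Irx1 (302, 380, 292 and 228 CPM), Irx2 and Irx3 and the T-box factors Tbx4 and Tbx5 of lung mesenchyme had no colon read, with bounds from 42.7-fold to 339-fold. The endoderm factors Foxa2 (95% interval -0.23 to 0.71) and Gata6 (-0.55 to 0.32), and Foxa1 (-0.97) and Foxp2 (-0.90), were not called. Foxa1 passed the limit on the colon side without colon replicate 1 (-1.03), lung replicate 2 (-1.01) or 3 (-1.01), and Foxp2 without colon replicate 1 (-1.10) or 2 (-1.01) or lung replicate 4 (-1.04). Of 13 tested intestinal factors, 12 were higher in colon (median -5.90, or -5.38 at bounds) and Foxf2 was not called. Cdx1 and Cdx2, which set intestinal identity, had no lung read and were at least 517-fold and 105.1-fold higher. Hnf4a stood at 467, 588, 476 and 504 CPM in colon without a lung read, at least 664-fold higher. The nuclear receptors Vdr, Nr1h4 and Nr1i2, which respond to vitamin D, bile acids and foreign compounds, differed by -4.84 ± 0.21, -6.48 ± 0.46 and -5.30 ± 0.49.

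Hox genes, whose order along their clusters follows position along the body axis, divided lung from colon by paralog group. Of 39 Hox genes on 3 lists, 10 had enough reads to be tested. The 3 tested genes of groups 1 to 5 were not called: Hoxa5 stood at 98.8, 61.1, 65.2 and 73.5 CPM in lung and 33.3, 47.2, 43.9 and 35.6 CPM in colon (0.90 ± 0.18, or 1.01 and called without lung replicate 2), and the intervals of Hoxb4 and Hoxb5 ran from -0.17 to 1.24 and from -0.65 to 0.45. All 6 tested genes of groups 9 to 13 were higher in colon, with 2 lung reads between them. Hoxb13 stood at 222, 486, 198 and 196 CPM, Hoxa9 at 50.5, 54, 40.6 and 56.5 CPM, and Hoxa10, Hoxa13, Hoxb9 and Hoxd13 had no lung read. In colon the sum over groups 9 to 13 was 398 to 433 CPM in replicates 1, 3 and 4 and 705 CPM in replicate 2, and in lung it was 0 to 2.58 CPM. Groups 6 to 8 showed the reverse within colon, with a sum of 137 to 169 CPM in replicates 1, 3 and 4 and of 33.7 CPM in replicate 2, against 4.61 to 18 CPM in lung. Their single tested gene, Hoxb6, stood at 68.7, 10.8, 77.0 and 70.1 CPM in colon and 3.46 to 11.2 CPM in lung, so the groups overlapped through colon replicate 2 (-2.82 ± 0.43, or -3.15 ± 0.27 without it). Without colon replicate 2, 4 genes of groups 6 to 8 were higher in colon, and the count was also 4 without any 1 of the lung libraries. The filter kept more genes in each of these fits than with all 8 libraries.

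**Figure D3:**
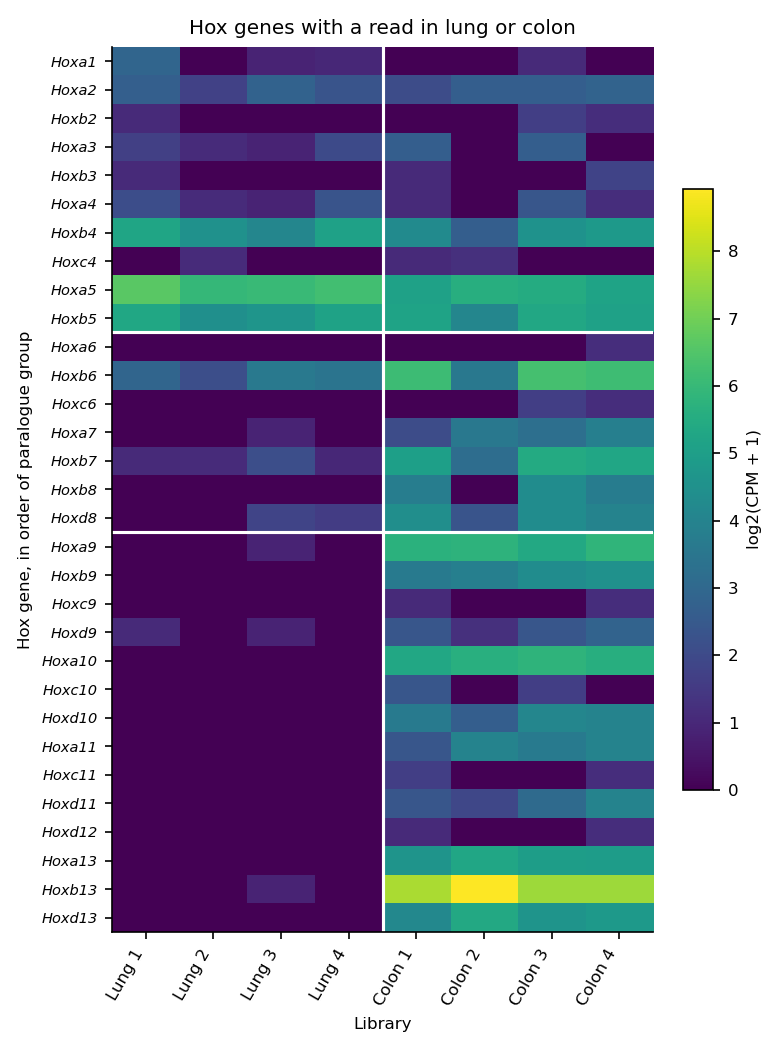
Level of each Hox gene with a read (rows, in order of paralog group, with white lines after groups 5 and 8) in each of the 8 libraries (columns), coloured by log2 of CPM plus 1. Genes of groups 9 to 13 are dark in lung and coloured in colon, and colon replicate 2 is brighter than the other colon libraries for Hoxb13 and darker for Hoxb6.

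Beyond the epithelium, blood vessels set the lung apart. All 13 endothelial genes were higher in lung (median 3.93). Cdh5, the cadherin of endothelial junctions, stood at 517, 553, 566 and 634 CPM in lung and 20.4, 8.1, 23.5 and 13.5 CPM in colon (5.06 ± 0.18, adjusted p = 4.58e-16), and Pecam1 at 700 ± 32.4 against 51.4 ± 14.6 CPM. Of 14 genes of alveolar capillaries, 13 were higher in lung (median 3.04) and Car4 was not. Prx (6.03 ± 0.27), Gpihbp1 (5.75 ± 0.26), which anchors lipoprotein lipase on capillaries, and Tmem100 (5.50 ± 0.16) led, and Kitl (1.01 ± 0.14) and Hpgd (1.05 ± 0.13) were just past the limit of 1. Kitl fell below it without colon replicate 1 (0.91) or 4 (0.96), and Hpgd without colon replicate 2 (0.92) or lung replicate 4 (0.97). Of 4 tested lymphatic genes, Lyve1, Pdpn and Flt4 were higher in lung and Mmrn1 (-0.60) was not called. Pdpn is also on the list of alveolar type 1 cells. The lymphatic regulator Prox1 had 10 lung and 15 colon reads and was not tested. A single lymphatic gene was higher in colon when colon replicate 3, lung replicate 2 or lung replicate 4 was left out.

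The mesenchyme differed in part. Of 10 genes of lung fibroblasts and lipofibroblasts, 9 were higher in lung (median 4.11), led by the methyltransferase Inmt, at 3944, 3384, 3415 and 3986 CPM in lung and 2.15 to 7.49 CPM in colon (9.58 ± 0.19). Of 10 genes of elastic fibres, 8 were higher in lung, among them elastin itself (Eln, 2.11 ± 0.19), Fbln5 (2.90 ± 0.19) and Ltbp2 (5.16 ± 0.29). Fbln2 (-0.98) was not called, but passed the limit on the colon side without colon replicate 1 (-1.11) or 4 (-1.03) or lung replicate 1 (-1.005) or 4 (-1.03). Of 14 general collagens and fibroblast genes, 4 were higher in lung (the basement membrane chains Col4a1 and Col4a2, and Pdgfra and Pdgfrb). Lum and Dcn were higher in colon, and 8 were not called (median -0.04). Of all tested genes, 18.4% were higher in lung and 17.3% in colon, so this count is not read as a trait of the list. Col1a1 stood at 240, 273, 328 and 238 CPM in lung and 242, 290, 340 and 294 CPM in colon (-0.11 ± 0.13, 95% interval -0.37 to 0.16), and Col6a3 had an interval of -0.28 to 0.30. So 8 of 10 elastic fibre genes were higher in lung, while the levels of Col1a1 overlapped between the organs.

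Smooth muscle and neurons marked the wall of the colon. Of 11 tested genes of visceral smooth muscle, 10 were higher in colon (median -3.04) and the receptor Chrm2 (-0.95) was not called, except without lung replicate 4 (-1.55, adjusted p = 0.0368). Actg2, the actin of gut muscle, stood at 2109, 2219, 2063 and 1812 CPM in colon and 41.7, 61.1, 45.5 and 29.8 CPM in lung (-5.53 ± 0.16, adjusted p = 1.17e-17), while Acta2, which vessels hold too, stood at 2451 ± 152 against 299 ± 7.11 CPM. Of 8 tested neuronal genes, 7 were higher in colon, among them the peptide Vip (61.2, 72.9, 73.8 and 82.4 CPM with 1 lung read) and Nos1, of inhibitory neurons of the gut wall. Stmn2, also a neuronal gene, was higher in lung, at 101, 83.0, 86.7 and 104 CPM against 30.1 to 46.0 CPM (1.24 ± 0.16, adjusted p = 7.36e-07). Kit, the receptor of pacemaker cells and of mast cells, stood at 125 ± 12.4 and 122 ± 15.9 CPM, with an interval of -0.23 to 0.30. Of 4 tested genes of glia and pacemaker cells, Erbb3 alone was called, higher in colon (-2.15).

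Immune genes parted by cell type. Antibody genes of the IgA system were higher in colon: Igha, the IgA heavy chain, stood at 2770, 4275, 3767 and 4924 CPM in colon and 83.5, 9.22, 13.7 and 11.9 CPM in lung (-7.09 ± 0.39, adjusted p = 6.20e-13, or -8.36 ± 0.24 without lung replicate 1). Jchain, which joins IgA into dimers (-5.11 ± 0.21), Pigr, the epithelial carrier of IgA (-5.51 ± 0.17), and the light chain Igkc (-3.08 ± 0.25) went with it. Ighm, the heavy chain of IgM, went the other way, at 398, 121, 458 and 352 CPM in lung and 50.5, 54, 55.6 and 49.2 CPM in colon (2.67 ± 0.27, adjusted p = 1.81e-08). Lung replicate 1 was the highest of lung for Igha and replicate 2 the lowest for Ighm, and neither reached the other tissue. Xbp1 and Sdc1, which epithelial cells hold as well as plasma cells, and Mzb1 were not called.

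The lists of other lymphocytes and of neutrophils lay on the lung side, with few reads. The tested genes of B cells (5 of 10), T cells (5 of 13), NK and innate lymphoid cells (3 of 10) and neutrophils (3 of 11) were all higher in lung, with medians of 2.89, 3.15, 3.45 and 4.47. Cd79b, part of the B cell receptor, stood at 145, 45.0, 102 and 45.7 CPM in lung and 3.69 to 8.59 CPM in colon (3.90 ± 0.43), the T cell receptor constant Trac at 34, 12.7, 23.2 and 15.9 against 1.07 to 3.69 CPM (3.52 ± 0.50), the NK protease Gzma at 110, 41.5, 72.1 and 54.6 against 0 to 6.42 CPM (4.26 ± 0.42), and S100a8, of neutrophils, at 111, 43.8, 40.4 and 51.6 against 1.35 to 4.28 CPM (4.47 ± 0.45). Lung replicate 1, with the most haemoglobin RNA, was the highest for each of these 4 genes. Without it the counts of these lists were the same, and Cd79b, Trac, Gzma and S100a8 differed by 3.54 ± 0.38, 3.24 ± 0.52, 3.98 ± 0.40 and 4.05 ± 0.36. Without the filter on low counts, 9, 10, 8 and 7 members of the 4 lists were higher in lung and none in colon.

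**Figure D4:**
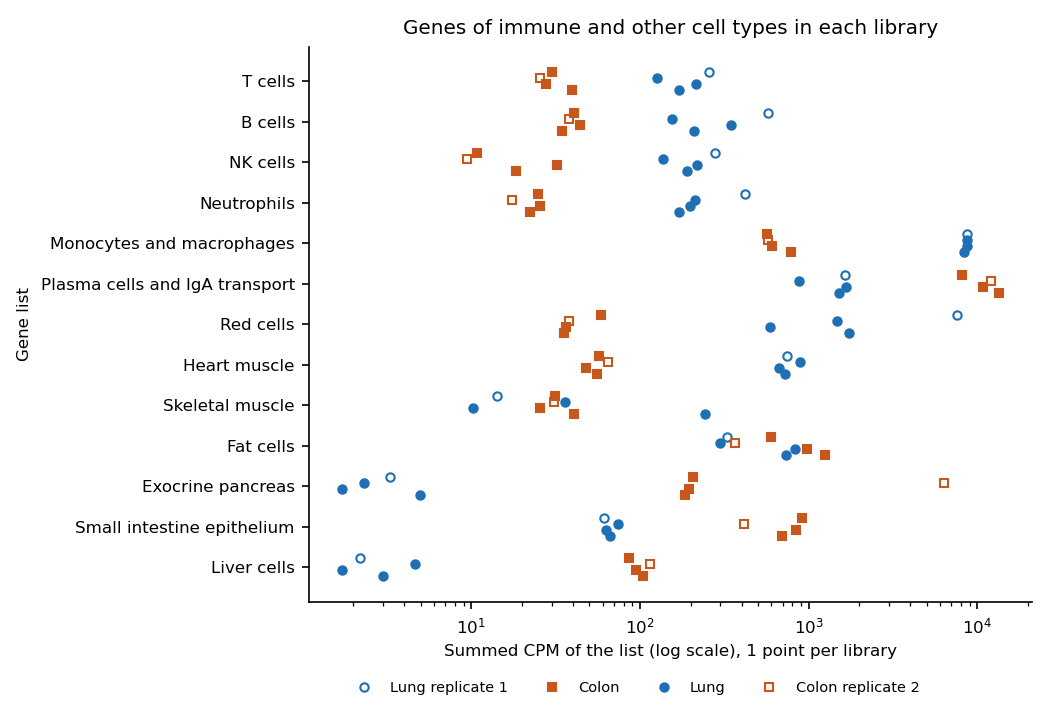
Summed level of the marker lists of immune and other cell types in each library, in CPM on a log scale (horizontal axis), with 4 lung and 4 colon points per list and open symbols for lung replicate 1 and colon replicate 2. Lung replicate 1 is the highest lung library for red cells, B cells, T cells, neutrophils and NK cells, and colon replicate 2 stands alone for the exocrine pancreas at 6344 CPM.

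Macrophage genes divided. Of 12 tested general genes, 6 were higher in lung (Lyz1, Lyz2, Ccr2, Cd68, Csf1r and Mrc1) and 6 were not called, among them the complement genes C1qa, C1qb and C1qc and the marker Adgre1 (16.1 ± 6.45 CPM in lung and 15.8 ± 4.57 CPM in colon, 95% interval -0.65 to 0.72). Of 9 tested genes of alveolar macrophages, 6 were higher in lung, 2 in colon and 1 was not called. Chil3 stood at 560, 372, 481 and 404 CPM in lung without a colon read (at least 520-fold), and the scavenger receptor Marco at 15.9 to 23.1 CPM without one. Pparg, a factor that alveolar macrophages need and that absorptive cells of the colon also hold, was higher in colon, at 69.8, 27, 44.9 and 65.2 CPM against 4.39 to 8.58 CPM (-3.02 ± 0.33). Plet1, which colon epithelium holds too, stood at 151, 43.2, 175 and 175 CPM in colon and 33.4 to 59.3 CPM in lung (-1.52 ± 0.28), and overlapped through colon replicate 2 (-1.81 ± 0.16 without it).

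All 8 tested genes of MHC class II presentation were higher in lung, from H2-Eb1 (1.71 ± 0.16) to H2-Ob (2.85 ± 0.39) on the log2 scale. Cd74, the invariant chain, stood at 1571, 1216, 1427 and 1336 CPM in lung and 277, 281, 355 and 414 CPM in colon (2.06 ± 0.13, adjusted p = 6.35e-12), and H2-Ab1 at 771 ± 105.2 against 206 ± 31.4 CPM. Of 11 tested interferon response genes, 7 were higher in lung (Ifit3 the most, 2.85 ± 0.41, or 3.45 without colon replicate 3) and Irf7, a master factor of that response, was higher in colon, at 132, 63.4, 104 and 93.4 CPM against 26.4, 16.1, 52.4 and 30.8 CPM (-1.61 ± 0.25). The colon levels of Irf7 were highest in replicate 1 and lowest in replicate 2, and all lay above lung.

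**Figure D5:**
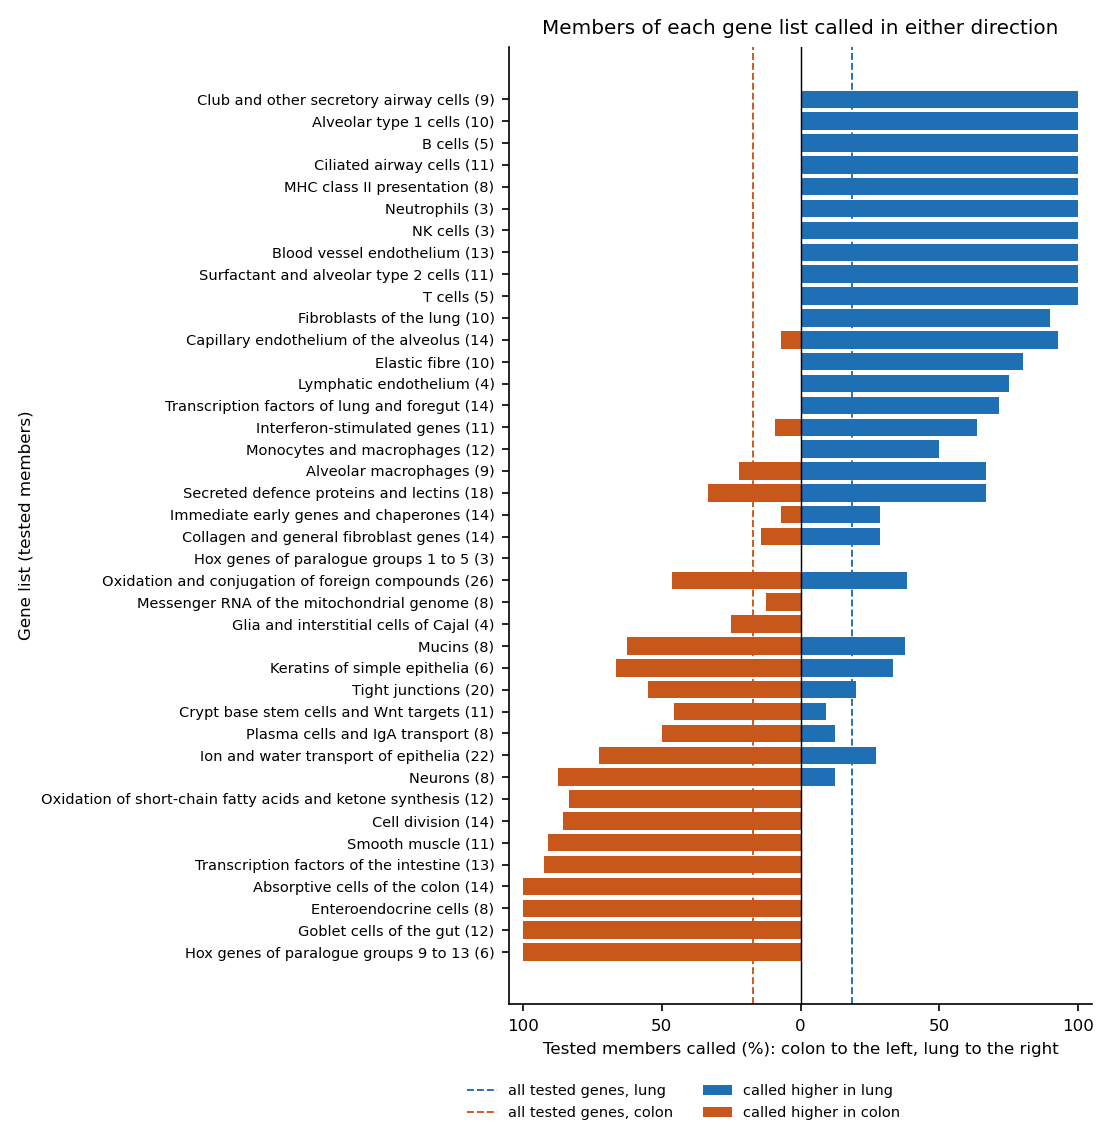
Share of the tested members of each gene list (their number in brackets) called higher in lung, to the right, and in colon, to the left, in percent, with dashed lines at the 18.4% and 17.3% of all tested genes. Lists of lung epithelium and blood vessel endothelium reach 100% on the right, those of absorptive, goblet and hormone cells on the left, and mucins, keratins and enzymes for foreign compounds extend to both sides.

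An adjusted p below 0.05, at any fold, was found for 5979 of the 10242 tested genes. Of 2885 genes with at least 50 CPM in both tissues, 2034 (70.5%) had a 95% interval of the log2 fold change within 1 of 0, and 25 of these were members of the lists. The closest of them were Col6a3, the chaperone Hspa8, the elastic fibre glycoprotein Emilin1, F11r, Kit and the matrix protein Dpt. Emilin1 stood at 47.2, 54.2, 54.9 and 45.7 CPM in lung and 47.2, 43.2, 54.5 and 55.3 CPM in colon (0.01 ± 0.17). Hspa8 stood at 272, 516, 452 and 504 CPM and 301, 551, 450 and 438 CPM, lowest in replicate 1 of both organs. Of 14 tested immediate early and heat shock genes, which respond to handling of tissue, 4 were higher in lung (Dusp1, 2.88 ± 0.15, Nr4a1, Jun and Hspa1a), Fos was higher in colon (-1.94 ± 0.25) and 9 were not called. The levels of Nr4a1 and Hspa1a overlapped between the organs, and Hspa1a (1.01) was not called without colon replicate 1 (0.70) or 3 (0.97) or lung replicate 2 (0.63) or 3 (0.95). On leaving out colon replicate 2 and lung replicate 1 together, 7 genes of this list were higher in lung. Of 8 tested mRNAs of mitochondrial DNA, mt-Co1 was higher in colon (-1.69 ± 0.12), and the other 7 did not pass both limits. Among these 7, mt-Cytb stood at 5909 ± 422 CPM in lung and 10600 ± 813 CPM in colon (-0.84 ± 0.10). Without the limit on fold change, 6 of the 8 were higher in colon. The sum of the list was 17300 to 21310 CPM in lung and 27640 to 35300 CPM in colon. Without colon replicate 2 mt-Nd1 was called as well (-1.02).

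Genes of other tissues and cell types were read as well, and where their RNA came from was not tested. All 7 tested heart muscle genes were higher in lung (median 4.16), among them the atrial genes Myl7 (124, 145, 113 and 134 CPM against 1.07 to 8.1 CPM in colon), Myl4 and Sln, while the ventricular light chain Myl2 had 9 lung and 34 colon reads and Nppa had none. The summed level of the list was 670 to 891 CPM in lung and 48.1 to 64.8 CPM in colon. Of 4 tested mesothelial genes, Msln, Upk1b and Upk3b were higher in lung, by 4.29 ± 0.44 (5.45 without colon replicate 3), 3.58 ± 0.23 and 2.97 ± 0.24. The fourth, the keratin Krt19, which colon epithelium also holds, was higher in colon (-3.80 ± 0.12), and the sum of the list was 361 to 458 CPM in lung and 1999 to 2609 CPM in colon. All 4 tested globin genes were higher in lung and highest in replicate 1: Hbb-bs stood at 4028, 785, 321 and 883 CPM in lung and 12.3 to 25.8 CPM in colon (6.30 ± 0.62, or 5.12 ± 0.30 without lung replicate 1). Skeletal muscle genes summed to 241 CPM in lung replicate 4 and to 10.3 to 40.6 CPM in the other 7 libraries. Fat cell genes overlapped, with sums of 300 to 832 CPM in lung and 366 to 1250 CPM in colon, and Adipoq was the single member called, higher in colon (-1.18) but not without colon replicate 4 (-0.83). The part of these cells in the other results was not tested. Cartilage genes, at 0 to 1.99 CPM in sum, and mast cell genes, at 2.14 to 13.8 CPM, were at or near 0. Of 10 genes of small intestinal epithelium, 2 were tested: the fatty acid binding protein Fabp2 was higher in colon, at 871, 386, 804 and 670 CPM with 1 lung read, and the peptidase Anpep was higher in lung (1.75). The lists of liver cells, thymocytes and squamous epithelium had 1 tested member each, of which the liver gene Ttr was called, higher in colon. The thymocyte member, Cd1d1 (0.98 ± 0.30), was called higher in lung when colon replicate 3 or lung replicate 2, 3 or 4 was left out.

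Colon replicate 2 decided some values and, among the genes named in the report, few calls. Of the named genes that were checked, 227 kept their status, 5 gained a call and 2 lost it without colon replicate 2. Its pancreatic enzymes stood at 1213 CPM (Pnlip), 1262 CPM (Ctrb1), 954 CPM (Cpa1) and 930 CPM (Prss2), where the other 3 colon libraries held 0 to 1.23 CPM. Cela1, an elastase that colon also held without it, stood at 204, 1705, 195 and 184 CPM (-7.73, or -6.20 without it), and the colipase Clps at 64.4, 1119, 70.6 and 77.5 CPM. S100g, a calcium binding protein, stood at 676, 16.2, 405 and 427 CPM in colon and 210 to 248 CPM in lung and was not called (-0.73 ± 0.43), but without colon replicate 2 it was higher in colon (-1.13 ± 0.14, adjusted p = 1.40e-08). Tff2, a trefoil peptide, stood at 10.7, 74.2, 3.21 and 3.69 CPM in colon and at 10.9 to 45.0 CPM in lung, and moved from 0.23 ± 0.60 to 2.04 ± 0.46, higher in lung (adjusted p = 0.000309), without it. Pla2g1b, a phospholipase, stood at 46.4 to 66.8 CPM in lung and at 89.1 CPM in colon replicate 2, with no read in the other 3 colon libraries, and was called, higher in lung, when that library was left out. Tmigd1 and Slc51a, of mature absorptive cells, were low in colon replicate 2 (14.8 against 151 to 204 CPM, and 12.2 against 97.3 to 129 CPM), and were called with it and without it. Without colon replicate 2, 2022 genes were higher in lung and 1887 in colon, of which 1800 and 1734 were also called with all 8 libraries. The filter kept 10623 genes in that fit, against 10242 with all 8, and 10516 to 10647 whichever library was left out. Without colon replicate 2 and lung replicate 1 the counts were 1926 and 1895.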

How the data were processed

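The deposited table held whole-number read counts per gene, made by the authors. FastQC, STAR, featureCounts and mm10 are named, per the submitters' processing notes; for versions, annotation and strand setting, nothing is given in the sources used here. Without strand, reads of overlapping antisense genes cannot be told apart, and without molecular identifiers copies of a molecule are counted as reads. The table holds 54532 genes, of which 54495 matched GENCODE vM21 by identifier. Each library held 750212 to 1202994 counts, which limits genes of low level. The 8 libraries were grouped by tissue label.

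From the counts as deposited, genes were kept by edgeR's filterByExpr (minimum count 10, minimum total 15), scaled by TMM and tested with edgeR 4.0.16's quasi-likelihood test (glmQLFit, glmQLFTest) in R 4.3.3, with p-values adjusted by Benjamini and Hochberg over all tested genes. Calls needed an adjusted p under 0.05 and a log2 fold change beyond 1. The fit was also run on simulated counts with known changes. These had the same dispersion for every gene and far fewer changed genes than were called here. That run therefore checks the code and not the error rate in these data. Alternatives were DESeq2 1.42.0, other scalings, no filter, no fold limit, a fit of all 60 libraries, a replicate block and leaving out libraries.

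The groups and gene lists were chosen with earlier results of these data known. Genes were named by rule: the 10 in each direction that differed most, given at least 50 CPM and groups that did not overlap, the 8 with most reads, list members by size of change (at least 5 CPM) or called against their list, and the closest members; other list members stand beside the count of their list. S100g, Tff2, Pla2g1b, Tmigd1 and Slc51a were chosen after their values were seen. Equal replicate numbers were not taken as pairs, since the labels do not tie them. The correlation of their deviations was 0.0164 to 0.0476, against -0.0487 to 0.00897 for unequal numbers, so a shared origin of equal numbers is not excluded. Promoters were read from a RefSeq table on GRCm38.p6. The other 52 libraries were not used, except where stated. Some list members are not reported here.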

Additional observations from a re-analysis of the deposited data

Results flagged for a closer look

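Among 396 groups of 4 libraries examined for a sample far from the other 3, 34 were flagged by Dixon's test at its 95% critical value. Chance flags about 1 in 20 groups, but the groups share the same 8 libraries. Some genes, such as Tff2 and Pla2g1b, were also chosen after their values were seen. The number flagged can therefore not be held against that rate. Colon replicate 2 was the sample in 19 of the 34 flagged groups, above the others in 14 and below them in 5.

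Above the other colon libraries, replicate 2 held the pancreatic genes Cela1 (1705 CPM against 184 to 204 CPM), Clps (1119 CPM against 64.4 to 77.5 CPM), Ctrb1 (1262 CPM), Pnlip (1213 CPM), Cpa1 (954 CPM), Prss2 (930 CPM) and Pla2g1b (89.1 CPM), the last 5 at 0 to 1.23 CPM in the others. It also held more RNA of the epithelial defence genes Mptx1 (4508 CPM against 1256 to 1456 CPM) and Ang4 (402 CPM against 74.1 to 89.7 CPM), the mucus gene Clca1 (4510 CPM against 2258 to 2613 CPM) and the trefoil peptide Tff2 (74.2 CPM against 3.21 to 10.7 CPM). The hormone genes Insl5 (273 CPM against 133 to 140 CPM) and Pyy (282 CPM against 191 to 203 CPM) and the posterior Hox gene Hoxb13 (486 CPM against 196 to 222 CPM) were high there as well.

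Below the other colon libraries, replicate 2 held Muc2 (12010 CPM against 16290 to 16830 CPM), Dmbt1 (2112 CPM against 3195 to 3284 CPM), the bile acid receptor Nr1h4 (49.9 CPM against 141 to 156 CPM), Hoxb6 (10.8 CPM against 68.7 to 77.0 CPM) and Cyp4b1 (0 CPM against 67.7 to 79.2 CPM).

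Of the other colon libraries, replicate 1 was low for Dusp1 (34.4 CPM against 49.2 to 51.3 CPM) and high for Fbln5 (22.6 CPM against 14.9 to 16.1 CPM). Replicate 3 was high for Msln (7.49 CPM against 1.07 to 1.35 CPM) and Smoc2 (48.1 CPM against 35.7 to 36.5 CPM), and replicate 4 for Lyz2 (283 CPM against 229 to 236 CPM) and Sftpc (6.15 CPM against 1.35 to 2.15 CPM).

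In lung, replicate 1 was high for Hbb-bs (4028 CPM against 321 to 883 CPM), Igha (83.5 CPM against 9.22 to 13.7 CPM), Cd1d1 (25.3 CPM against 18.4 to 18.9 CPM) and S100a8 (111 CPM against 40.4 to 51.6 CPM) and low for Krt7 (430 CPM against 491 to 503 CPM). Replicate 2 was high for Nkx2-1 (276 CPM against 193 to 203 CPM) and low for Igkc (188 CPM against 553 to 599 CPM). Replicate 3 was low for Muc1 (278 CPM against 300 to 303 CPM), and replicate 4 was high for Aqp1 (770 CPM against 626 to 644 CPM). The part of these libraries in other results was not tested beyond the values given without them.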

How the results depend on the processing

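The counts of 1889 genes higher in lung and 1776 higher in colon became 2897 and 2698 without the filter on low counts, where 21627 genes were tested, and 2939 and 3040 without the limit on fold change. With all 60 libraries in the fit, 18562 genes were tested and 2801 and 2776 were higher in lung and colon. DESeq2's size factors gave 1892 and 1774, library totals 1830 and 1856 and DESeq2's Wald test 1892 and 1776. With 1 library left out, 10516 to 10647 genes were tested, and the counts were 1914 to 2083 in lung and 1803 to 1957 in colon. Without colon replicate 2 and lung replicate 1 together, a setting chosen after seeing the data, they were 1926 and 1895. The fit with a replicate block gave 1894 and 1777. Each library correlated best with its own number in the other tissue, a hint from the data and not from the design. No gene named in the report that was called changed direction under any of these settings in which it had an adjusted p. Beyond the libraries named in the report, library totals ended the calls of Hspa1a (0.96) and Kitl (0.97). The edgeR fit of all 60 libraries ended those of Adipoq (adjusted p = 0.254), Hspa1a and Kitl. DESeq2's Wald test and the block ended that of Hspa1a (0.98 and 0.95). DESeq2's Wald test gave no adjusted p for Cela1 and some other named genes, so these were not compared under it. Pla2g1b was called without the filter (1.46) and with the block (1.86). Without the filter, 6 members of the pancreas list and 11 posterior Hox genes were higher in colon. Of the pancreas list, Pnlip, Ctrb1, Cpa1 and Prss2 rested on colon replicate 2 (930 to 1262 CPM, against 0 to 1.23 CPM in the other colon libraries). Library totals also called Foxa1 (-1.02), Fbln2 (-1.03) and mt-Nd1 (-1.01), higher in colon. At this depth genes of a few reads per library could not be tested.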
